A study of Homo sapiens with 8 samples.

Results

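Mitochondrial ribosomal protein (MRP) genes were followed in L1236, a Hodgkin lymphoma cell line with high miR-155, in total RNA (T) and in RNA co-precipitated with Ago2 (IP). Members were chosen by symbol, as MRPL or MRPS followed by a digit, and this gave 104 of the 41000 probes on the array and 77 symbols. A probe was kept when at least 4 of 8 channels were well above background and its Cy3 and Cy5 values lay within 2-fold in each RNA. Of the member probes 103 were kept, and 102 of these were well above background in all 8 channels. The exception was 1 probe of MRPL49, with 7 channels. The only member probe that failed was 1 of the probes for MRPL43, with 0 channels above background. The kept probes stood for 76 of the 77 protein-coding MRP genes in RefSeq and for the pseudogene MRPL42P5. No probe matched MRPL42. Results below are for the 76 genes, each read from its brightest kept probe, and "all genes" means the 11201 named genes with a kept probe.

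All cells were L1236, transduced with the retroviral vector pMSCV-PIG and sorted for GFP. EV cells carried it empty and in sponge cells it held a miR-155 sponge, whose repeated sites compete for the microRNA. The study saw no clear loss of miR-155 targets from the Ago2 fraction of its Hodgkin lines with the sponge. It proposes that part of the miR-155 was left free. Each of the 4 groups (EV T, EV IP, sponge T, sponge IP) was 1 RNA sample, labelled once with Cy3 and once with Cy5. The IP and T fractions of a population shared an array, in both dye orientations, so that 4 arrays gave 8 channels. The labels name no further culture or precipitation per group, so the values are described without a test or p-value. An error (±) is the SD over the 2 dye orientations for IP/T or over the 2 dyes for sponge against EV. It covers labelling and hybridisation, and leaves out variation between cultures. A median over genes was taken from per-gene means, and its error from the medians of the single orientations or dyes. Such a median can lie outside both of these. L1236 is a single cell line, and a change in bulk RNA cannot separate fewer cells of a kind from less RNA per cell.

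The mitochondrial ribosome translates the few respiratory chain proteins encoded in mitochondrial DNA. Its RNA comes from that DNA, whereas all its proteins are encoded in the nucleus, translated in the cytosol and imported. MRPL genes encode proteins of the large subunit, which joins amino acids, and MRPS genes those of the small subunit, which decodes the message. Many of the proteins descend from those of the bacterial ribosome, and the rest were added in mitochondria. Ago2 holds microRNAs and the cytosolic transcripts they pair with, so IP/T measures how far a transcript is represented in the Ago2 fraction relative to its level in the cell. Quantile normalisation gave both fractions the same distribution of signals, so IP/T is relative to the other transcripts and not an absolute share.

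The microRNA targeted by the sponge is shown with its seed (bases 2 to 8) in capitals, because the seed is the part that pairs with target transcripts. It lies at chr21:25573983-25574006 on the + strand of GRCh38.p14 (RefSeq). Sites for it in the MRP transcripts were not analysed here.
hsa-miR-155-5p: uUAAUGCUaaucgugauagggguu

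No spot was saturated. The share of spots well above background was lowest in sponge T in Cy5 (54.1%) and lay between 61.0% and 65.8% in the other channels, so the medians over the MRP genes that rest on sponge T are also given by dye or orientation. Of 7 marker genes of Hodgkin lymphoma cells, all 7 were above background in all 8 channels. CD3D and CD3G of T cells, LYZ of monocytes and EPCAM of epithelium were in 0 channels, while 1 of 5 T-cell, 2 of 4 monocyte and 3 of 5 epithelial markers were in all 8. MIR155HG, the transcript that miR-155 is cut from, was lower in sponge than in EV cells by log2 -0.62 ± 0.12 in T and by -0.38 ± 0.08 in IP. AGO2 differed by -0.0007 ± 0.03 in T.

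Most MRP transcripts had a lower signal in the Ago2 fraction than in total RNA. The median log2 IP/T of the 76 genes in EV cells was -0.61 ± 0.11, against -0.16 over all genes. The middle 50% of MRP genes lay between -1.16 and 0.19, and the whole set between -2.0 and 2.39. In the orientation with IP in Cy5 the median was -0.66, and with IP in Cy3 it was -0.51.

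Counts by threshold gave the same order. An IP/T of 0.5 or less in EV cells was found for 26 MRP genes, 34.2% of them, against 18.8% of all genes. An IP/T of 2 or more, called enriched here, was found for 5 MRP genes, 6.58%, against 18.1% of all genes. The 5 were MRPL20, MRPS18C, MRPL19, MRPL17 and MRPS6. In both dye orientations 48 of 76 MRP genes lay below an IP/T of 1, against 5654 of 11201 genes (50.5%). Above it lay 22 of 76, against 4417 of 11201 (39.4%). With normexp background correction, loess and Aquantile scaling, the count at 0.5 or less was 10. That scaling also moved the median of all genes from -0.16 to -0.01, and the MRP median relative to all genes was -0.47 there and -0.45 in the main setting.

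**Figure D1:**
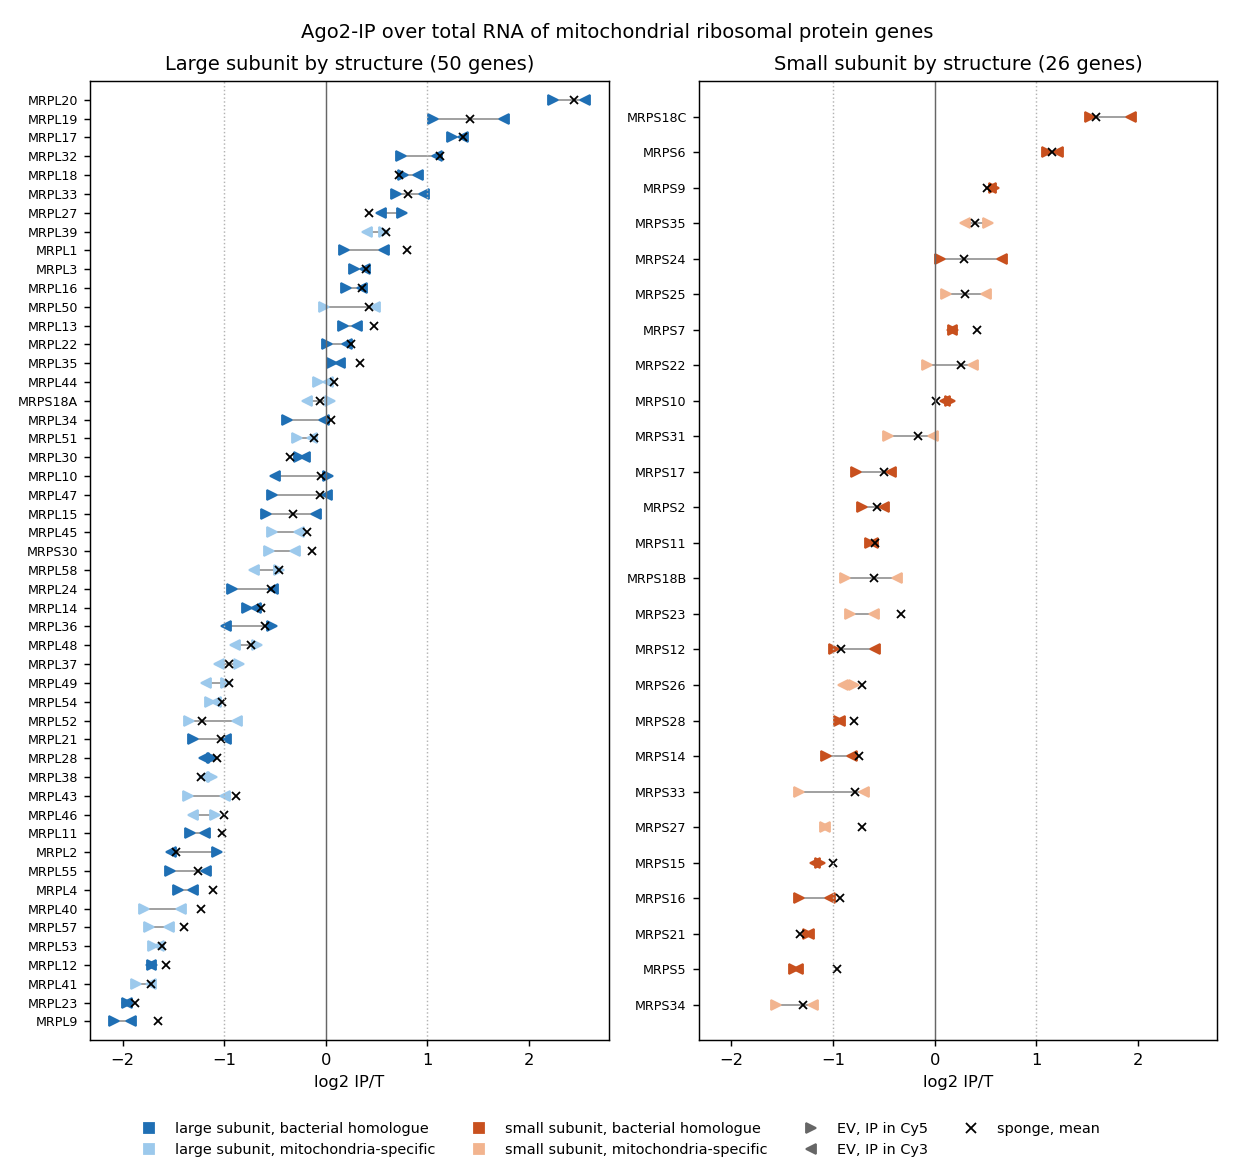
Log2 IP/T of each of the 76 MRP genes, sorted within the large (50 genes) and small (26 genes) subunit as placed by structure. Triangles are the 2 dye orientations in EV cells and crosses are the mean in sponge cells, with dotted lines at an IP/T of 0.5 and of 2; most genes lie left of 0, and MRPL20 stands furthest right at 2.39.

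The 6 highest and 6 lowest genes below were picked by IP/T in EV cells. That choice sets their EV IP and T channels apart. The sponge channels are not independent of it, as EV and sponge IP/T correlated with r of 0.981 over all genes. MRPL20, whose bacterial counterpart acts early in building the large subunit, had the highest IP/T of the MRP genes. Its log2 signal in EV T was 15.15 in Cy3 and 15.02 in Cy5, and in EV IP it was 17.57 and 17.39. In sponge T it was 15.12 and 14.84, and in sponge IP 17.53 and 17.31. All 4 IP channels were above all 4 T channels. IP/T was 5.25-fold in EV cells (log2 2.39 ± 0.22) and 5.43-fold in sponge cells (2.44 ± 0.35). A further probe of MRPL20 gave 2.42 in EV cells.

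MRPS18C, a human relative of bacterial protein S18, came next. Its log2 signal was 14.67 in Cy3 and 14.47 in Cy5 in EV T and 16.40 and 16.20 in EV IP. In sponge cells it was 14.64 and 14.52 in T and 16.23 and 16.10 in IP. The IP and T channels did not overlap, and log2 IP/T was 1.73 ± 0.28 for EV and 1.59 ± 0.18 for sponge. The symbols MRPS18A and MRPS18B mark diverged relatives that take other places in the ribosome and are counted as mitochondria-specific below. In EV cells MRPS18A lay at -0.07 ± 0.16 on the log2 scale and MRPS18B had -0.63 ± 0.36.

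MRPL19, a protein at the interface between the subunits, had log2 signals of 13.70 in Cy3 and 13.28 in Cy5 in EV T, and of 15.03 and 14.76 in EV IP. In sponge cells they were 13.74 and 13.00 in T and 14.90 and 14.68 in IP. Its log2 IP/T in EV cells was 1.06 in one orientation and 1.75 in the other (mean 1.40 ± 0.49), the widest dye error of the 76 genes. MRPL17 had log2 signals of 12.69 and 12.63 in EV T and 13.98 and 13.93 in EV IP, and in sponge cells 12.61 and 12.63 in T and 14.01 and 13.92 in IP. Its IP and T channels were far apart and its dyes close, with log2 IP/T of 1.30 ± 0.08 and 1.35 ± 0.05.

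MRPS6, whose bacterial counterpart pairs with S18, had log2 signals of 14.66 and 14.65 in EV T and 15.87 and 15.77 in EV IP. In sponge cells they were 14.76 and 14.55 in T and 15.89 and 15.73 in IP. IP was above T in every channel (log2 IP/T 1.16 ± 0.08 in EV), and its other probe gave 0.82. MRPL32, a large subunit protein that is trimmed by a mitochondrial protease after import, was just under the threshold in EV cells at 0.92 ± 0.26 and above it in sponge cells at 1.12 ± 0.15. It is the gene that made the count of enriched genes 6 in sponge cells.

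At the other end, MRPL9 had the lowest IP/T. Its log2 signal was 13.69 in Cy3 and 13.62 in Cy5 in EV T and 11.71 and 11.61 in EV IP. In sponge cells it was 13.61 and 13.48 in T and 11.95 and 11.83 in IP. T exceeded IP 4.00-fold in EV cells (log2 IP/T -2.0 ± 0.12) and 3.15-fold in sponge cells (-1.66 ± 0.17).

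MRPL23, which lies at the exit of the peptide tunnel, had log2 signals of 14.32 and 14.35 in EV T and 12.40 and 12.36 in EV IP. In sponge cells they were 14.35 and 14.24 in T and 12.44 and 12.41 in IP. The T channels were all above the IP channels, by 3.89-fold in EV and 3.66-fold in sponge cells.

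MRPL41, a protein found only in mitochondrial ribosomes, had log2 signals of 13.81 and 13.76 in EV T and 12.04 and 11.95 in EV IP, and in sponge cells 13.97 and 13.87 in T and 12.23 and 12.17 in IP. Its log2 IP/T was -1.80 ± 0.10 (EV) and -1.72 ± 0.11 (sponge). MRPL12, a protein of the stalk that recruits translation factors, had log2 signals of 13.43 and 13.38 in EV T and 11.67 and 11.72 in EV IP, and in sponge cells 13.35 and 13.22 in T and 11.64 and 11.79 in IP. Both genes had every T channel above every IP channel.

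MRPL53 and MRPL57 are also specific to mitochondria. MRPL53 had log2 signals of 15.76 and 15.66 in EV T and 14.02 and 14.06 in EV IP, and in sponge cells 15.81 and 15.70 in T and 14.09 and 14.20 in IP. In EV cells its log2 IP/T was -1.67 ± 0.04, and its other probe gave -2.18. MRPL57 had log2 signals of 14.46 and 14.37 in EV T and 12.83 and 12.72 in EV IP, and in sponge cells 14.37 and 14.34 in T and 13.00 and 12.93 in IP. Its probes were at -1.64 and -0.95, the widest distance in EV cells among the 22 genes with more than 1 kept probe. With normexp, loess and Aquantile the gene was at -0.79.

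**Figure D2:**
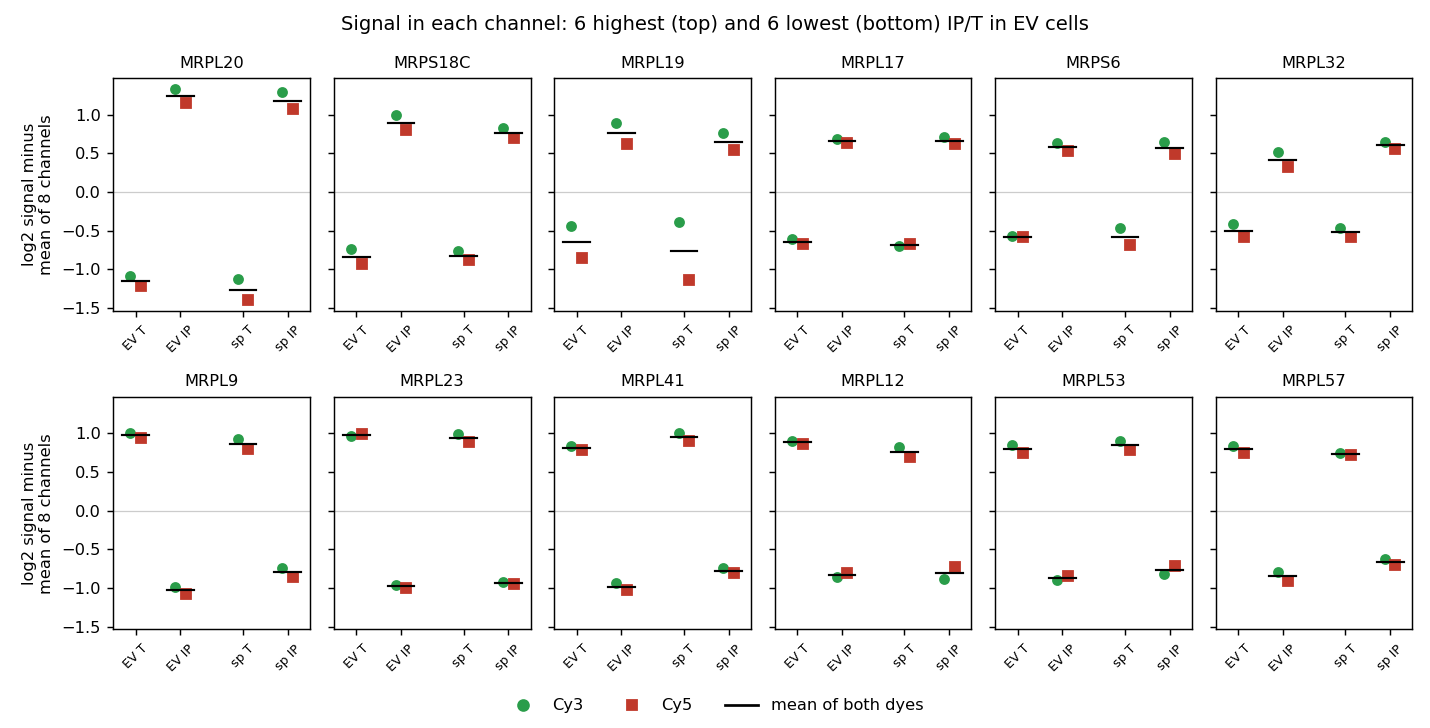
Log2 signal in each of the 8 channels, minus the mean of the 8, for the 6 MRP genes with the highest (top row) and the 6 with the lowest (bottom row) IP/T in EV cells. Circles are Cy3, squares Cy5 and bars the mean of both dyes for EV T, EV IP, sponge (sp) T and sponge IP. The IP and T channels do not overlap in any of the 12 genes, which in EV cells follows from picking them by IP/T. In sponge cells it is not independent of that choice, as EV and sponge IP/T correlated with r of 0.981 over all genes. The share of all genes without overlap was not counted.

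Probes of a gene lay less than 1 apart on the log2 scale. Over the 22 genes with more than 1 kept probe the distance between the lowest and highest probe had a median of 0.29 in log2 IP/T in EV cells, a minimum of 0.01 at MRPS21 and a maximum of 0.69 at MRPL57. In 1 gene, MRPL35, the probes lay on both sides of 0, at -0.23 and 0.10. In sponge cells the median distance was 0.17 and the widest 0.74, at MRPS10, and 2 genes had probes on both sides of 0, MRPL34 (-0.05 and 0.05) and MRPL35 (-0.01 and 0.34). Across the 76 genes the 2 dye orientations correlated with Pearson's r of 0.961 (EV) and 0.945 (sponge). These points share arrays and genes are not independent replicates. Gene span on GRCh38 and log2 IP/T in EV cells correlated with r of 0.243 (log10 span, 76 genes), and promoter GC content with r of -0.101 (68 genes). Over all genes these were 0.159 and -0.008.

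Large and small subunit genes had nearly the same median IP/T. By symbol, the median log2 IP/T in EV cells was -0.65 ± 0.03 over the 48 large and -0.61 ± 0.20 over the 28 small subunit genes. With IP in Cy5 these medians were -0.56 and -0.74, and with IP in Cy3 -0.60 and -0.46. The large subunit value of -0.65 thus lies below both of its orientations. The difference of medians was -0.04 ± 0.23 in EV and 0.03 ± 0.17 in sponge cells, within the dye error, and its sign depended on the dye orientation in both populations (0.18 and -0.14 in EV cells). An IP/T of 0.5 or less was found for 19 of 48 large (39.6%) and 7 of 28 small subunit genes (25%) in EV cells, against 18.8% of all genes. In sponge cells it was found for 17 large (35.4%) and 3 small subunit genes (10.71%), against 17.4%. The large subunit held both ends, with a range of -2.0 to 2.39 against -1.38 to 1.73 for the small subunit. MRPS30 and MRPS18A are placed in the large subunit by structure despite their symbols, and MRPS30 had a log2 IP/T of -0.43 ± 0.18. With both moved, the difference was 0.12 ± 0.15 in EV and 0.17 ± 0.07 in sponge cells, where the single orientations gave 0.13 and 0.02.

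Genes with a bacterial homologue had a higher median than mitochondria-specific ones. The median log2 IP/T in EV cells was -0.30 for the 46 genes with a homologue and -0.82 for the 30 without, a difference of 0.52 ± 0.11. The difference was 0.35 when Cy3 and Cy5 had to lie within 1.5-fold. It was 0.32 and 0.48 on the single EV arrays with IP in Cy5 and in Cy3, both below 0.52. In sponge cells it was 0.38 ± 0.14, again above the single arrays, with 0.12 for IP in Cy5 and 0.32 for IP in Cy3. With normexp and quantile normalisation it was 0.22 in sponge cells. With MRPS18A and MRPS18B counted as having a homologue it was 0.60 in EV and 0.39 in sponge cells. By the first assignment it lay in the large subunit, where 30 genes with a homologue had a median of -0.24 and 20 without had -1.02 (difference 0.78 ± 0.21 in EV, 0.87 ± 0.17 in sponge cells). In the small subunit the 16 and 10 genes had -0.61 and -0.67 (0.06 ± 0.09 in EV, -0.11 ± 0.08 in sponge cells). All 5 genes with an IP/T of 2 or more in EV cells had a bacterial homologue, as did MRPL9, MRPL23 and MRPL12 at the lower end. The highest of the mitochondria-specific genes reached 0.49. The SD over genes was 1.01 with a homologue and 0.66 without.

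**Figure D3:**
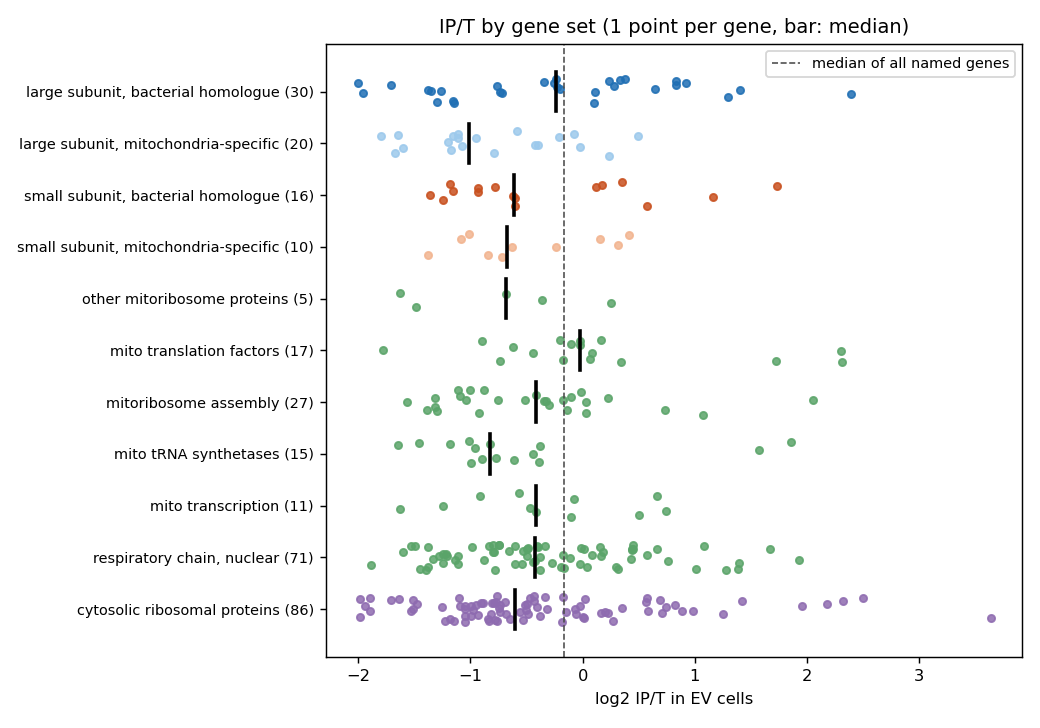
Log2 IP/T in EV cells, 1 point per gene and a bar at the median, for MRP genes split by subunit (by structure) and origin and for other gene sets, with the number of genes in parentheses and the median of all genes (-0.16) as a dashed line. Large subunit genes with a bacterial homologue have a median of -0.24 and reach 2.39, whereas the mitochondria-specific ones have a median of -1.02 and end at 0.49.

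Other parts of the mitochondrial gene expression system gave medians on both sides of that of the MRP genes. In EV cells the median log2 IP/T was -0.68 for the 5 mitoribosome proteins with other names, with GADD45GIP1 at -1.63 and DAP3 at 0.25. The counts of the lists stand against 18.8% of all genes at an IP/T of 0.5 or less and 18.1% at 2 or more. The 15 mitochondrial tRNA synthetases had a median of -0.82, with 4 at 0.5 or less (26.7%) and 2 at 2 or more (13.3%). The 27 ribosome assembly factors had -0.42, with 9 (33.3%) and 2 (7.41%). The 11 genes of mitochondrial transcription and replication had -0.41, with 2 (18.2%) and 0.

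The 17 translation factors of mitochondria stood nearest to 0, at -0.03, with 1 gene at 0.5 or less (5.88%) and 3 at 2 or more (17.6%). TUFM, the elongation factor, was at -1.78 ± 0.04, while SLIRP, which binds mitochondrial messengers, was at 2.31 ± 0.15 and the initiation factor MTIF3 at 2.30 ± 0.23. The 71 nuclear genes of the respiratory chain had -0.43, with 17 (23.9%) and 7 (9.86%). The 86 cytosolic ribosomal protein genes had -0.61, the same as the MRP genes to 2 decimals, with 21 at 0.5 or less (24.4%) and 7 at 2 or more (8.14%). RPL22 was their highest at 3.64 and RPS18 their lowest at -1.99. The lists differ in size and no test was made between them. Whether probes of ribosomal protein genes also read their processed copies was not tested.

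Sponge cells gave nearly the same order of MRP genes. Their median log2 IP/T was -0.52 ± 0.14, with -0.61 in the orientation with IP in Cy5 and -0.42 in that with T in Cy5, the channel with the fewest spots above background. All genes had -0.14. An IP/T of 0.5 or less was found for 20 MRP genes (26.3%, against 17.4% of all genes) and of 2 or more for 6 (7.89%, against 17.7%). In both orientations 43 of 76 lay below an IP/T of 1, against 5389 of 11201 genes (48.1%). Above it lay 24 of 76, against 4347 of 11201 (38.8%). EV and sponge values correlated with r of 0.988 over the 76 genes, and 0.981 over all genes.

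**Figure D4:**
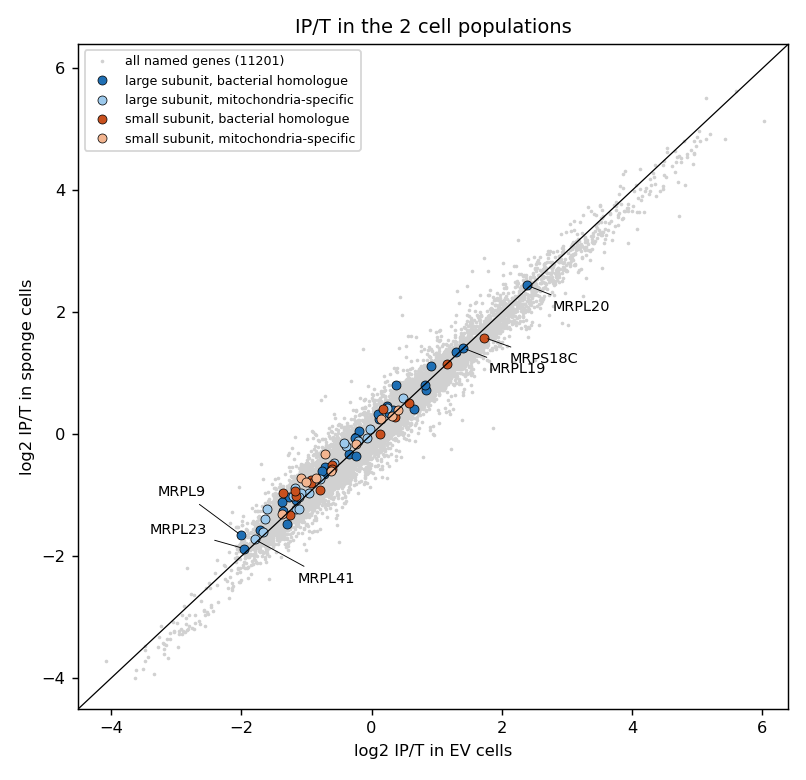
Log2 IP/T in EV cells (horizontal) against sponge cells (vertical) for the 76 MRP genes in colour and all 11201 named genes in grey, with the line of equal values. MRP genes follow the line from MRPL9 and MRPL23 at the lower end to MRPL20, at 2.39 in EV and 2.44 in sponge cells.

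The change in IP/T from EV to sponge cells was small and mostly upward among MRP genes. Its median was 0.10 ± 0.01 on the log2 scale, against 0.01 over all genes. A rise of this size was not particular to MRP genes. The median was 0.14 each for mitochondrial translation factors, mitoribosome proteins with other names, and genes of mitochondrial transcription and replication. It was 0.10 each for assembly factors and mitochondrial tRNA synthetases, and 0.08 each for respiratory chain and cytosolic ribosomal protein genes. The change was above 0 in 59 MRP genes and below 0 in 17. In both orientations it was above 0 in 48 of 76, against 3770 of 11201 genes (33.7%). It was below 0 in 11 of 76, against 3340 of 11201 (29.8%). In a single dye the median was 0.04 from the Cy3 labels and 0.16 from the Cy5 labels. The change is made of the T and IP values described next, and shares their samples. A change beyond 0.32 on the log2 scale (25% higher or 20% lower), with the same sign in both orientations, was found upward in 6 MRP genes (7.89%, against 6.49% of all genes) and downward in 0 (5.49% of all genes). The 6 were MRPL1, MRPS5, MRPS23, MRPL40, MRPS27 and MRPL9. This list and the 0 hold for the brightest probes. Among further kept probes, 1 of MRPL2 passed downward (-0.38 ± 0.04). Probes of MRPL49 (0.54 ± 0.73), MRPL38 (0.38 ± 0.14), MRPL45 (0.36 ± 0.01), MRPL46 (0.33 ± 0.26) and MRPL52 (0.33 ± 0.04) passed upward. The brightest probes of MRPL38 and MRPL52 were at -0.07 and -0.11.

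In total RNA the MRP genes differed little between the populations. The median difference of sponge from EV was -0.04 ± 0.05, within the dye error, with -0.0007 in Cy3 and -0.07 in Cy5, against -0.01 over all genes. In both dyes 31 of 76 MRP genes were lower, against 3564 of 11201 genes (31.8%). Higher in both were 15 of 76, against 3291 of 11201 (29.4%). A difference beyond 0.32, with the same sign in both dyes, was found downward in 1 gene, MRPL1 (4.81% of all genes), and upward in 0 (5.32% of all genes). The Cy5 labels alone gave 4 such genes and the Cy3 labels alone 0. Among the probes that were not the brightest of their gene, 1 of MRPL49 was at -0.47 ± 0.45 in T, below 0 in both dyes.

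MRPL1, the protein of the mobile stalk near the exit site for tRNA, had log2 signals in T of 9.24 in Cy3 and 9.06 in Cy5 in EV cells and 9.05 and 8.57 in sponge cells. In IP they were 9.63 and 9.42 in EV and 9.67 and 9.55 in sponge cells. The difference of sponge from EV was -0.34 ± 0.22 in T, with most of it in Cy5, and 0.09 ± 0.07 in IP. Sponge T in Cy5 was the channel with the fewest spots above background. The change in IP/T was 0.43 ± 0.14. Its IP channels overlapped between the populations and its T channels did not.

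MRPS5, a core protein of the small subunit, had log2 signals in T of 12.50 and 12.48 in EV and 12.37 and 12.21 in sponge cells. In IP they were 11.13 and 11.12 in EV and 11.29 and 11.38 in sponge cells. The differences were -0.20 ± 0.10 in T and 0.21 ± 0.07 in IP, and the populations did not overlap in either fraction. MRPS23 gave the same directions, with T signals of 12.63 and 12.40 in EV and 12.45 and 12.08 in sponge cells. Its IP signals were 11.80 in both dyes in EV cells and 11.99 and 11.89 in sponge cells. Its differences were -0.25 ± 0.10 in T and 0.14 ± 0.06 in IP.

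Also among the lowest in T were MRPS7, a protein of the head of the small subunit, at -0.24 ± 0.02, and MRPS33 at -0.22 ± 0.04. Both lay near 0 in IP, at 0.00 ± 0.01 and 0.02 ± 0.01. The highest in T were MRPL2, next to the site of peptide bond formation, at 0.31 ± 0.15, followed by MRPL55 at 0.15 ± 0.06, MRPL41 at 0.13 ± 0.03, MRPL52 at 0.13 ± 0.07 and MRPL44 at 0.11 ± 0.14. MRPL2 had T signals of 9.45 and 9.64 in EV and 9.65 and 10.05 in sponge cells. MRPL1 and MRPL2 had the lowest T signals of the 76 genes.

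In the IP fraction the MRP genes were slightly higher in sponge cells. The median difference was 0.09 ± 0.03, with 0.06 in Cy3 and 0.10 in Cy5, against 0.0035 over all genes. It was as high in mitochondrial tRNA synthetases (0.11) and nuclear respiratory chain genes (0.09). The other lists were lower, with 0.07 for mitoribosome proteins with other names and 0.04 for assembly factors. Translation factors and cytosolic ribosomal protein genes had 0.02 each, and mitochondrial transcription and replication 0.01. In both dyes 46 of 76 MRP genes were higher, against 4221 of 11201 genes (37.7%). Lower in both were 15 of 76, against 4077 of 11201 (36.4%). In 0 MRP genes did the difference pass 0.32 in either direction, where 4.59% of all genes did upward and 4.15% downward. The Cy5 labels alone gave 4 genes. These counts hold for the brightest probes. A further kept probe of MRPL35 was at 0.45 ± 0.01 in IP, beyond 0.32 in both dyes, and another was at -0.13 ± 0.02. With normexp, loess and Aquantile the median was 0.03 ± 0.01.

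MRPL40, a mitochondria-specific protein, had the largest difference in IP. Its IP signals were 11.39 in Cy3 and 11.09 in Cy5 in EV and 11.68 and 11.43 in sponge cells, against T signals of 12.87 and 12.81 in EV and 12.92 and 12.65 in sponge cells. The difference was 0.32 ± 0.03 in IP and -0.06 ± 0.15 in T. MRPL55 (0.25 ± 0.16), MRPL11 of the factor-binding region (0.24 ± 0.003), MRPS27 (0.24 ± 0.07) and MRPL9 (0.24 ± 0.01) followed.

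MRPL27 had the lowest difference in IP, at -0.26 ± 0.06. Its IP signals were 14.29 and 14.42 in EV and 14.07 and 14.12 in sponge cells, and its T signals 13.67 and 13.75 in EV and 13.70 and 13.64 in sponge cells. The IP channels of the populations did not overlap and the T channels did. MRPL30 was at -0.14 ± 0.06, MRPL18 at -0.14 ± 0.02, MRPS18C at -0.13 ± 0.05 and MRPL33 at -0.13 ± 0.02. The lowest changes in IP/T were those of MRPL27 (-0.22 ± 0.16), MRPL2 (-0.18 ± 0.22), MRPS18C (-0.15 ± 0.11) and MRPS12 (-0.13 ± 0.13). The other kept probe of MRPL2 was at -0.38 ± 0.04.

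**Figure D5:**
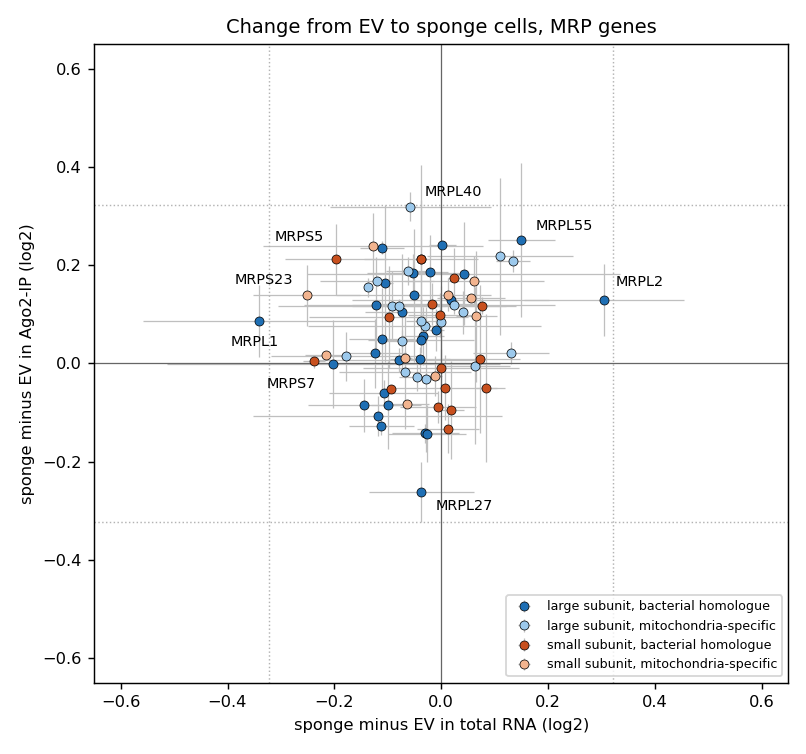
Difference of sponge from EV cells in total RNA (horizontal) and in Ago2-IP (vertical) for the 76 MRP genes on the log2 scale, with bars of 1 SD over the 2 dyes and dotted lines at 0.32 either way. MRPL1 lies beyond the line in total RNA at -0.34, MRPL40 is highest in IP at 0.32 and MRPL27 lowest at -0.26.

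The subunits differed little in these differences of sponge from EV. The large minus small median was -0.04 ± 0.01 in T, beyond the dye error, with -0.02 in Cy3 and -0.04 in Cy5. It was below 0 under all 14 alternatives (-0.044 to -0.021), which reuse the same 4 RNA samples. The SD over genes in T was 0.10 in either subunit. In IP the large minus small median was 0.03 ± 0.01, and -0.01 ± 0.02 when all kept probes of a gene were averaged. Across the 76 genes the dyes correlated with r of 0.34 for the difference in T and 0.679 for that in IP, and the orientations with 0.49 for the change in IP/T.

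Promoter sequence, which the choice by symbol did not use, was compared with that of all protein-coding genes in RefSeq. These include genes without a kept probe in L1236, whereas nearly all MRP genes had 1. RefSeq promoters (GRCh38.p14, from 250 bases before to 50 after a start) were available for 69 MRP genes, with 85 promoters, and for 68 of the 76 measured genes. The letters CCGGAAG, the core bound by ETS family factors, were searched on both strands and found in 33 of 85 (38.8%), against 12.8% of all 22199 promoters and 32.6% of those of cytosolic ribosomal protein genes. AAGATGGCG, bound by YY1, was found in 15.3%, against 2.41% of all, and the NRF1 element in 11.8%, against 7.39%. CCAAT (32.9% against 34.7%) and GGGCGGGG (34.1% against 29.6%), bound by NFY and SP factors, lay near the background. A match to letters is a description and not a binding site. Stretches from upstream of the start of genes at the upper (MRPL20, MRPS18C) and lower (MRPL53) end of IP/T are shown with the CCGGAAG letters in capitals. Of the 12 genes at the ends, 11 had a promoter in the table, and the letters were found upstream of the start in these 3 and not in the other 8. The stretches lie at chr1:1407294-1407373 (- strand), chr4:83455808-83455887 (+ strand) and chr2:74472709-74472788 (- strand), and hold 2, 1 and 1 matches.
MRPL20: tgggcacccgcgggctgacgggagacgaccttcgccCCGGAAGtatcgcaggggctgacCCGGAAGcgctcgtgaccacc
MRPS18C: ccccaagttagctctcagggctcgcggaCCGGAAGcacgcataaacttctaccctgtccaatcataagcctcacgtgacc
MRPL53: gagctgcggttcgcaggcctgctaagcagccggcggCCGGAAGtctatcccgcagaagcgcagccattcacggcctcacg

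The median log2 IP/T in EV cells was -0.65 for the 30 MRP genes with the ETS letters and -0.61 for the 46 without a match or without a promoter in the table. For YY1 it was -0.25 (12 genes) and -0.67 (64 genes).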

How the data were processed

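Scanned arrays were read by the authors with Agilent Feature Extraction (version 10.7.3.1 in the headers, 10.5.1.1 in the labels), and the deposited intensity of each spot and channel is background-subtracted and dye-corrected. A table of 22282 probes holds log2 values normalised by the authors. Its columns lay within a median distance of 0.003 (log2) of the values used here. The study's methods name GeneSpring GX and quantile normalisation.

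Control and outlier spots were dropped, spots of a probe averaged, and log2 processed signals quantile normalised over the 8 channels (limma 3.58.1, R 4.3.3). Of 41000 probes, 25867 passed detection and 22468 the dye filter, and 15624 of these had a symbol through RefSeq (GRCh38.p14, used for names because the array annotation follows another build). Effects were computed with Python 3.11.15 and pandas 2.3.3. Each group held 1 sample, so there was no test. The scripts were tested on simulated data. MRPS36 is named KGD4 in RefSeq and was not a member. Subunit and origin were assigned from general knowledge and checked against RefSeq synonyms for 75 genes. The members and lists were chosen with earlier results of these data known, and motifs were searched as letters in promoters. Named were the 6 highest and 6 lowest genes by IP/T in EV cells, the 5 largest differences each way in T and IP, the 4 largest in IP/T (same sign in both dyes or orientations), the MRPS18 paralogs, MRPS30, and the highest and lowest members of lists. Alternatives covered background correction, normalisation, both filters, the probe per gene, subunit assignment, and single dyes or orientations. The number of arrays limits the precision.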

Additional observations from a re-analysis of the deposited data

Results flagged for a closer look

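In 16 MRP genes (21.1%, against 8.74% of all genes) both dyes gave a lower signal in sponge than in EV T and a higher one in sponge than in EV IP, and the difference between the fractions was not tested. The log2 differences in T and IP were -0.34 and 0.086 for MRPL1, -0.25 and 0.14 for MRPS23, -0.22 and 0.018 for MRPS33, -0.20 and 0.21 for MRPS5, -0.14 and 0.15 for MRPS30, and -0.12 and 0.12 for MRPL35. They were -0.12 and 0.17 for MRPL43, -0.11 and 0.24 for MRPL9, -0.10 and 0.16 for MRPL4, -0.079 and 0.12 for MRPL46, and -0.074 and 0.046 for MRPL58. The smallest in T were -0.073 with 0.10 for MRPL24, -0.063 with 0.19 for MRPL57, -0.038 with 0.21 for MRPL34, -0.037 with 0.087 for MRPL49, and -0.035 with 0.056 for MRPL14. Each gene was read from its brightest probe. A further kept probe of MRPL35 was lower in IP in both dyes (-0.13), and another was higher in T in both (0.23). The other kept probes of MRPL43, MRPL46 and MRPL49 had dyes of opposite sign in T or IP. Those of MRPL34 and MRPL57 gave the same pattern. The reverse was found in 1 gene, MRPS10 (1.32%, against 5.7% of all genes), at 0.019 in T and -0.094 in IP. The other kept probes of MRPS10 were higher in IP in both dyes (0.17 and 0.18). The log2 IP/T of MRPL34 was -0.20 (EV) and 0.0504 (sponge), with the same sign in both orientations of each, and that difference was not tested either. The other probe of MRPL34 stayed below 0 in sponge cells in both orientations (-0.048). The probe of MRPL42P5, a pseudogene of MRPL42, was well above background in 8 of 8 channels although MRPL42 itself had no kept probe. Whether the probe also reads MRPL42 transcripts was not tested.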

How the results depend on the processing

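With normexp background correction, loess and Aquantile, the median log2 IP/T of MRP genes was -0.477 in EV and -0.381 in sponge cells, its change 0.051, the IP difference 0.029, the large minus small difference in IP 0.013, and the genes at an IP/T of 0.5 or less numbered 10 in both populations. With normexp and quantile normalisation the change was 0.116, the large minus small difference in T -0.026, the homologue difference in sponge cells 0.224, and 11 genes were at 0.5 or less in sponge cells. Under both, 0 genes changed beyond 0.32 in T. With the 75th percentile the change was 0.068. With the dye filter at 1.5-fold the homologue difference in EV cells was 0.348. Averaging probes turned the large minus small difference in IP to -0.0091. The cause of these shifts was not tested. Over all settings, single dyes included, 208 values for the main comparisons stayed within the dye error or within 1.5 times the count, 31 moved further, and 1 whose main value exceeded its dye error changed sign. Another 9 sign changes were all in the large minus small difference in log2 IP/T, whose main values lie within the dye error. MRPL57 was -0.79 with normexp and loess and -0.94 with normexp and quantile, against -1.64.

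Single dyes or single orientations gave ranges. The median log2 IP/T was -0.661 to -0.509 in EV and -0.609 to -0.418 in sponge cells, its change 0.037 to 0.157, the difference in T -0.073 to -0.0007 and that in IP 0.056 to 0.096. Genes at 0.5 or less numbered 23 to 27 in EV and 16 to 23 in sponge cells, and at 2 or more 5 to 6 and 4 to 7. From 0 to 4 genes changed beyond 0.32 in T and from 0 to 4 in IP. The large minus small difference was -0.140 to 0.181 in EV, -0.179 to 0.062 in sponge cells (0.055 with IP in Cy5), -0.036 to -0.021 in T and 0.022 to 0.043 in IP. The homologue difference, whose alternatives were chosen after seeing the data, was 0.318 to 0.507 in EV and 0.125 to 0.469 in sponge cells, with 0.475 on the EV array with IP in Cy3 and 0.196 in sponge cells from Cy3 labels. All 76 genes were kept.

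No paired analysis was possible because each group held 1 RNA sample and the replicate numbers stand for its 2 dyes. Gene names from the array files were not run. The normexp settings used the median spot signal.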
